A study of Mus musculus with 6 samples.

Results

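Lysyl oxidases and lysyl hydroxylases are the enzymes that crosslink collagen, and their 8 mouse genes were followed in MC38 tumor cells taken from mice. The genes were chosen by symbol as the Lox and Plod families, namely Lox, Loxl1, Loxl2, Loxl3, Loxl4, Plod1, Plod2 and Plod3, and make up 8 of the 52636 genes of the deposited table. All 8 passed the filter on low values and were tested.

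Collagen chains are modified in the endoplasmic reticulum before they are secreted. There, the lysyl hydroxylases encoded by the Plod genes hydroxylate lysines, using iron, 2-oxoglutarate and ascorbate. Outside the cell, the copper-dependent lysyl oxidases turn lysines and hydroxylysines of collagen, and lysines of elastin, into aldehydes that react with neighbouring chains to form covalent crosslinks. Which crosslink forms depends on whether the lysine was hydroxylated before, so the products of both families act on the same residues in sequence. In solid tumors such crosslinks are known for making the matrix stiffer.

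MC38 is a mouse colon adenocarcinoma line. Control cells (M1E5-Thy1.1) and targeted MC-38 cells (M1E5-Zfx-KO-Thy1.2) were implanted with Matrigel, a basement membrane gel, beneath the skin of untreated female mice aged 6 to 10 weeks, and tumor cells were sorted by flow cytometry from the digested tumors. Each group had 3 libraries. In the targeted cells the X-linked zinc finger transcription factor gene Zfx had been edited with CRISPR ribonucleoprotein complexes. The allele of the surface protein Thy1 changed with the genotype in all 6 libraries, so an effect of either cannot be told apart, and the labels do not say how many clones the cells came from, what M1E5 stands for or whether each library of a group had its own mouse. The p-values therefore set the groups against the spread among the 3 libraries of a group, and that spread may be technical. In limma, the test for single genes, it is drawn toward that of genes with a like level.

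The libraries held 42392848 to 42962578 reads in the controls and 37763096, 38228434 and 65050908 reads in the Zfx-KO-labelled ones. Zfx stood at 5.68, 5.88 and 5.46 log2 CPM (the log2 of reads scaled to library size, with a small prior count added) in the controls and at 6.30, 6.41 and 6.22 in the Zfx-KO-labelled libraries, higher by 0.64 (SE 0.10, limma adjusted p = 0.000473) and against the direction that the label names. Gene totals do not tell edited from intact transcripts, and every direction below refers to the label, not to a measured loss of Zfx. Colon epithelial markers were scarce: the summed level of 14 was 2.83 to 3.87 CPM in the controls and 17.4 to 23.6 CPM in the Zfx-KO-labelled libraries, most of the higher sum was Krt8, a simple epithelial keratin gene (5 reads in the controls together and 2571 in the Zfx-KO-labelled libraries), Cdx2 had 0 reads in all 6 libraries, and Krt18, Krt20 and Muc2 had 0 in the controls.

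The 50-base reads can tell the 8 genes from one another. None of the 50-base stretches of the annotated transcripts of a member was found in another member. The sequences below show coding windows of 60 bases inside a single exon (GENCODE M21, GRCm38), for Loxl1 to Loxl4 and for the Plod genes. In each set, the windows were chosen so that the gene least like the first one was as like it as possible. Lox was left out of this search. Bases shared by all the genes compared are in capitals. Among Loxl1 to Loxl4, 40 of the 60 bases were shared by all, and the windows lie at chr9:58292569-58292628 on the minus strand, chr14:69690211-69690270 on the plus strand, chr6:83050385-83050444 on the plus strand and chr19:42597945-42598004 on the minus strand, in this order.
Loxl1: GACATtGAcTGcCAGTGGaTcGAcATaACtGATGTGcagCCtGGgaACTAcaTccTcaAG
Loxl2: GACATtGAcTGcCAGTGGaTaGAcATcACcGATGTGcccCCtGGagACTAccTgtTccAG
Loxl3: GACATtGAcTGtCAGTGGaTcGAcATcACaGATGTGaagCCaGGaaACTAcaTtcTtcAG
Loxl4: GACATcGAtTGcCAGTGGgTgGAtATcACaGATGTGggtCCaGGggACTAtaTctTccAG

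Among the Plod genes, 46 of the 60 bases were shared, in windows at chr4:147921033-147921092 on the minus strand, chr9:92598628-92598687 on the plus strand and chr5:136990999-136991058 on the plus strand.
Plod1: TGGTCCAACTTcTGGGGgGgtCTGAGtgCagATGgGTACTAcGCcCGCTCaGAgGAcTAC
Plod2: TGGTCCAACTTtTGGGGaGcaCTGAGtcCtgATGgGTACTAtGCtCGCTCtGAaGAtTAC
Plod3: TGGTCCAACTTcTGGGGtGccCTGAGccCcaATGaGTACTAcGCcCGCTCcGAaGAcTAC

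The longest run of identical coding bases was 28 bases between Loxl1 and Loxl2 among Loxl1 to Loxl4, and 24 bases between Plod1 and Plod3 among the Plod genes. Other genes do share stretches with 5 of the members. Of the distinct 50-base stretches of Loxl2, 45.0% also occur in another gene, among them the predicted genes Gm21451 and Gm16867 on the same chromosome 14. These held 1 and 2 reads over all 6 libraries. How reads that match several genes were counted is not given in the sources used here, so the level of Loxl2 is uncertain. The shares were 8.54% for Loxl3, 9.81% for Plod3, 5.51% for Plod2 and 0.626% for Plod1. Loxl3 overlaps Htra2 and Plod3 overlaps Znhit1 on the opposite strand. Whether the authors counted by strand is not given in the sources used here. Htra2 had a log2 fold change of 0.14 (limma adjusted p = 0.117) and Znhit1 one of 0.36 (limma adjusted p = 0.00189).

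In the Zfx-KO-labelled libraries, 4 of the 5 lysyl oxidase genes were higher by 2.52 to 25.7-fold, and all 3 lysyl hydroxylase genes were higher by 1.197 to 1.49-fold. Loxl4 had the only lower mean and did not pass the test. With limma's adjusted p under 0.05 as the call, 44.4% of the 20094 tested genes were called, 24.9% as higher and 19.5% as lower, so single calls were common. Non-overlapping groups were found for 7 of the 8 members and for 54.1% of all genes tested. Calls of at least 2-fold (15.3% of all genes) were made upward for 11.6% of all genes and for 4 of the 8 members, all of them lysyl oxidases, and downward for 3.65% of all genes and 0 members. The median log2 fold change was 0.95 over the 8 members and 0.09 over all genes tested. Equal medians, another scaling between libraries, lower every log2 fold change by 0.21, and with it 3224 genes were called higher and 6357 lower, which turns the majority of calls.

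**Figure D1:**
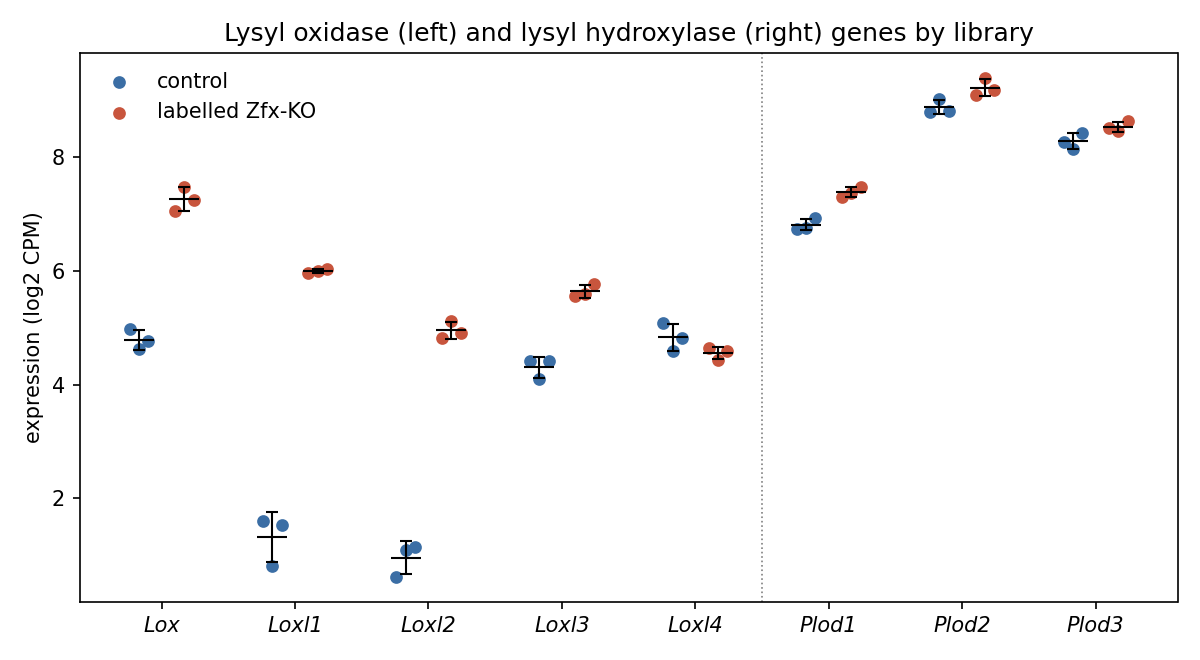
Expression of the 8 genes in log2 CPM, with 1 point per library and the mean and SD (n = 3) in black, for control libraries and Zfx-KO-labelled libraries. The groups stand apart for Lox, Loxl1, Loxl2 and Loxl3, while those of Loxl4 overlap and those of Plod2 and Plod3 lie 0.08 and 0.04 apart.

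Lox encodes the founding member of the family and acts on fibrillar collagens and elastin. Lox, on chromosome 18 from 52516069 to 52529867, stood at 4.98, 4.63 and 4.76 log2 CPM in the controls and at 7.05, 7.48 and 7.25 in the Zfx-KO-labelled libraries. All 3 Zfx-KO-labelled libraries lay above all controls, with 2.08 log2 units between the nearest libraries. The log2 fold change was 2.47 (SE 0.11, limma adjusted p = 1.85e-07), or 5.54-fold, and the reads behind it were 3551 in the controls together and 21696 in the Zfx-KO-labelled libraries.

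Loxl1 is the paralog known for elastic fibers, where it is needed for elastin renewal in mice. It lies on chromosome 9 from 58287738 to 58313186 and had the largest change of the 8 genes. Its level was 1.59, 0.80 and 1.54 log2 CPM in the controls, lowest in control replicate 2, and 5.96, 6.00 and 6.03 in the Zfx-KO-labelled libraries, which differed from each other by 0.07. It rose by 4.69 (SE 0.18, limma adjusted p = 6.14e-08), or 25.7-fold, from 324 reads in the controls together to 9044. The SD was 0.44 in the controls and 0.04 in the Zfx-KO-labelled libraries (n = 3 each).

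Loxl2, a secreted enzyme that acts on collagen IV of basement membranes, lies on chromosome 14 from 69609068 to 69695834. Its level was 0.62, 1.098 and 1.14 log2 CPM in the controls and 4.82, 5.12 and 4.91 in the Zfx-KO-labelled libraries, with 3.68 log2 units between the groups. It rose by 4.001 (SE 0.15, limma adjusted p = 6.14e-08), or 16.0-fold, from 248 reads in the controls together to 4353.

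Loxl3, which is needed for palate and spine development in mice, lies on chromosome 6 from 83034173 to 83052562. It stood at 4.42, 4.09 and 4.41 log2 CPM in the controls and at 5.56, 5.60 and 5.76 in the Zfx-KO-labelled libraries. The groups were 1.14 log2 units apart, and the rise was 1.33 (SE 0.10, limma adjusted p = 3.52e-06), or 2.52-fold.

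Loxl4, which with Loxl2 and Loxl3 forms the branch that carries scavenger receptor domains, lies on chromosome 19 from 42593982 to 42612813. Its levels were 5.08, 4.60 and 4.82 log2 CPM in the controls and 4.64, 4.43 and 4.60 in the Zfx-KO-labelled libraries. The groups overlapped, since control replicate 2 stood below replicate 1 of the Zfx-KO-labelled libraries. The log2 fold change was -0.27 (SE 0.12, limma adjusted p = 0.0811). It passed at -0.49 with equal medians (limma adjusted p = 0.00599), at -0.35 with sample weights (0.0184) and at -0.39 without control replicate 2 (0.00913), and over all alternatives the adjusted p ran from 0.00599 to 0.296.

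All 3 lysyl hydroxylase genes were called higher, each by less than 2-fold. Plod1 hydroxylates lysines of the collagen triple helix and is mutated in human kyphoscoliotic Ehlers-Danlos syndrome. It lies on chromosome 4 from 147909753 to 147936767 and stood at 6.74, 6.76 and 6.92 log2 CPM in the controls and at 7.31, 7.36 and 7.48 in the Zfx-KO-labelled libraries. The rise of 0.57 (SE 0.07, limma adjusted p = 8.82e-05), or 1.49-fold, was 0.36 with equal medians.

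Plod2 encodes the enzyme for lysines of the telopeptides, the non-helical ends of collagen, and is mutated in human Bruck syndrome. It lies on chromosome 9 from 92542223 to 92608428. Its level was 8.80, 9.02 and 8.81 log2 CPM in the controls and 9.10, 9.39 and 9.18 in the Zfx-KO-labelled libraries, so that the highest control lay just under the lowest Zfx-KO-labelled library. The difference was 0.35 (SE 0.09, limma adjusted p = 0.00929), or 1.27-fold. The call was lost with equal medians at 0.13 (limma adjusted p = 0.243) and without an intensity trend in the variance (0.066). The reads of the gene do not separate its splice forms. The longer form includes an exon of 63 bases at chr9:92601985-92602047 on the plus strand (GENCODE M21, GRCm38), and inclusion of this exon is what distinguishes the form tied to telopeptide hydroxylation. It is printed here in the reading direction of the gene, with no letter marked.
Plod2 alternative exon: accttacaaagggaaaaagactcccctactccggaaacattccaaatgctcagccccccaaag

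Plod3, whose enzyme also adds sugars to hydroxylysine, lies on chromosome 5 from 136987019 to 136996648. It stood at 8.27, 8.14 and 8.42 log2 CPM in the controls and at 8.52, 8.46 and 8.63 in the Zfx-KO-labelled libraries, and the groups were 0.04 apart. The difference was 0.26 (SE 0.08, limma adjusted p = 0.0216), or 1.197-fold. It was lost with equal medians at 0.046 (limma adjusted p = 0.727), without an intensity trend (0.101), without control replicate 1 (0.0549) or 2 (0.0525) and without replicate 3 of the Zfx-KO-labelled libraries (0.0887).

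**Figure D2:**
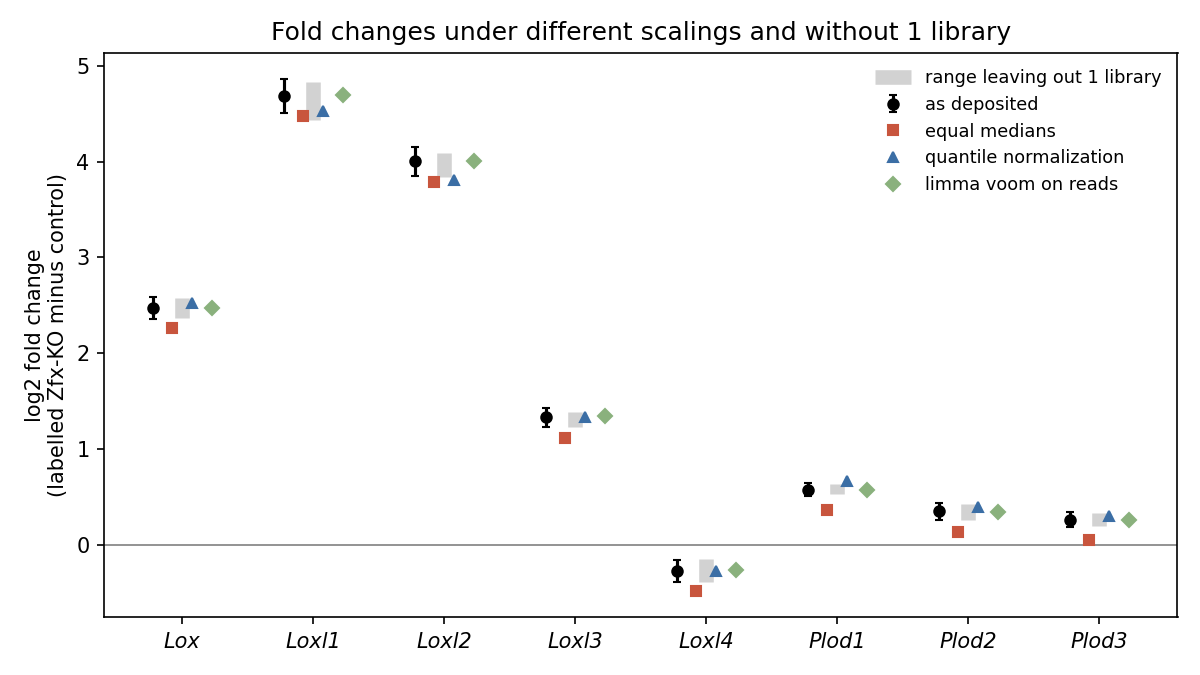
Log2 fold change of each gene (labelled Zfx-KO minus control) as deposited, with its SE, and with equal medians, quantile normalization and limma voom on the recovered reads, and in grey the range when 1 library is left out. Lox, Loxl1, Loxl2 and Loxl3 stay above 1 throughout, and the values of Plod2 and Plod3 come down to 0.13 and 0.046 with equal medians.

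Levels of different genes were compared as CPM per kb of exon. In the controls the order was Plod2 at 127.0 ± 11.4 (SD, n = 3), Plod3 at 94.8 ± 9.26, Plod1 at 31.1 ± 2.17, Loxl4 at 7.67 ± 1.28, Lox at 5.77 ± 0.715, Loxl3 at 4.85 ± 0.596, Loxl1 at 0.768 ± 0.213 and Loxl2 at 0.358 ± 0.0683 CPM per kb. The ranges of Loxl4 and Lox overlapped, as did those of Lox and Loxl3, although all 3 controls had them in this order. In the Zfx-KO-labelled libraries the hydroxylases kept their order, at 161.7 ± 17.3 for Plod2, 113.3 ± 7.06 for Plod3 and 46.3 ± 2.80 for Plod1. The oxidases then followed as Lox at 32.1 ± 4.72, Loxl1 at 19.4 ± 0.484, Loxl3 at 12.2 ± 0.944, Loxl4 at 6.30 ± 0.459 and Loxl2 at 5.74 ± 0.638 CPM per kb, the last pair with overlapping ranges. In a setting chosen after seeing the data, all reads of a gene were divided by its number of 50-base stretches found in no other gene. It put Loxl2 at 10.5 and Loxl4 at 5.53 CPM per 1000 stretches in the Zfx-KO-labelled libraries, which turns the order of these 2 genes. If reads from shared stretches were counted, this setting overstates Loxl2.

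The share of each gene in its family does not move with the scaling between libraries. Within the lysyl oxidase family, counted per kb, Loxl4 made up 41.0%, 38.8% and 38.4% in the controls and 9.52%, 7.18% and 8.43% in the Zfx-KO-labelled libraries. It was the largest part of the family in each control, and the fourth in each Zfx-KO-labelled library except replicate 2, where it was the last. The share of Lox went from 29.8, 30.8 and 28.7% to 39.6, 46.02 and 41.1%, and that of Loxl1 from 4.14, 3.13 and 4.46% to 27.0, 24.1 and 25.9%. Loxl2 went from 1.89% ± 0.557 to 7.58% ± 0.395, and Loxl3 from 25.04% ± 1.33 to 16.1% ± 1.34 (SD, n = 3 each), so that Loxl3 took a smaller share while its level was higher. All reads of a gene were also divided by its number of 50-base stretches found in no other gene, which overstates Loxl2 if reads from shared stretches were counted. Loxl2 then went from 3.60% ± 1.04 to 13.2% ± 0.619, and Loxl4 was last in all 3 Zfx-KO-labelled libraries. For each of these 5 shares the groups did not overlap, and an exact permutation test (two-sided) gave p = 0.1, the lowest that 3 libraries a group can reach (0.133 adjusted over the 8 shares tested).

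The make-up of the lysyl hydroxylase family moved little. Plod2 made up 49.2, 54.7 and 46.8% of it in the controls and 48.7, 54.3 and 47.9% in the Zfx-KO-labelled libraries, highest in replicate 2 of each group (exact permutation p = 1). Plod3 made up 37.5% ± 3.52 in the controls and 35.3% ± 2.82 in the Zfx-KO-labelled libraries (exact permutation p = 0.5). Plod1 went from 12.3% ± 0.629 to 14.4% ± 0.712, with no overlap (exact permutation p = 0.1).

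**Figure D3:**
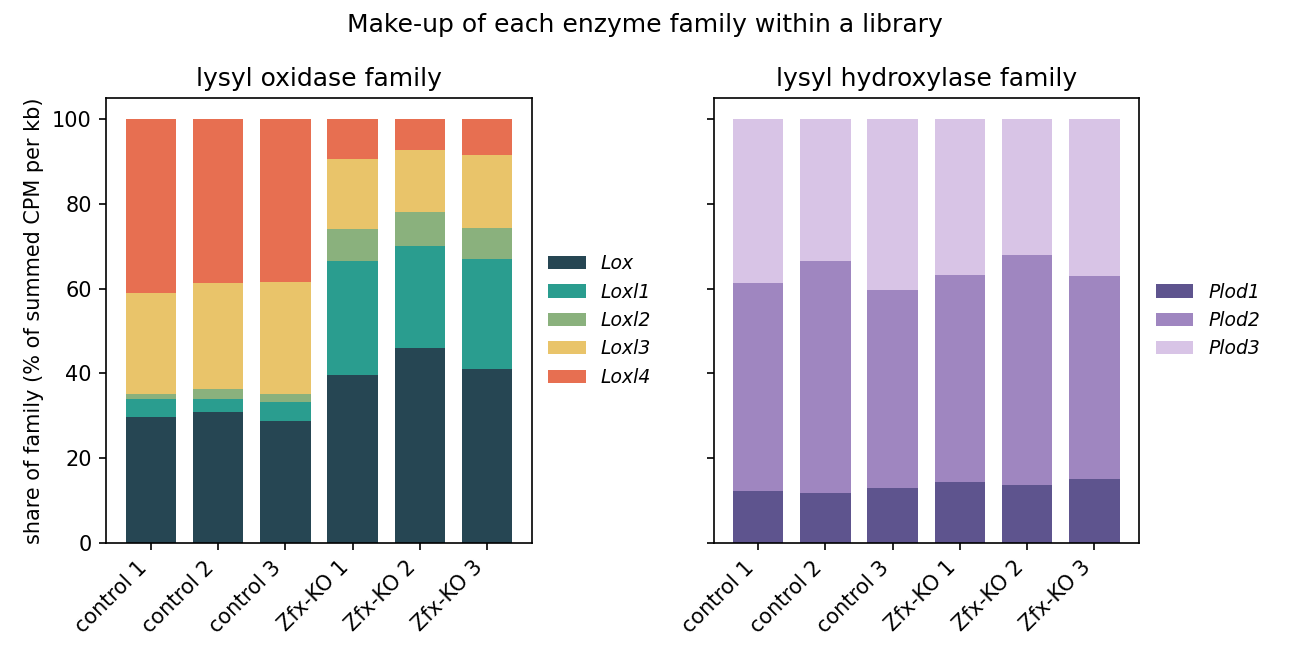
Stacked bars give the share of each gene in the summed CPM per kb of its family, in each of the 6 libraries. In the lysyl oxidase family Loxl4 takes 38.4 to 41.0% of each control and 7.18 to 9.52% of each Zfx-KO-labelled library, and in the lysyl hydroxylase family Plod2 takes 46.8 to 54.7% of each library.

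Within the families, 13 pairs of genes were compared as log2 ratios per kb inside a library. In 10 pairs the groups did not overlap, which is 9 of the 10 lysyl oxidase pairs and 1 of the 3 lysyl hydroxylase pairs. The 10 lysyl oxidase pairs are built from 5 genes and are not independent. The share over all pairs of genes was not computed, and 54.1% of single genes tested had groups that did not overlap. The widest shift was that of Loxl1 over Loxl4, from -3.35 ± 0.26 to 1.62 ± 0.12 (SD, n = 3 each). For Lox over Loxl4 the ratio went from -0.40 ± 0.07 to 2.34 ± 0.32. Loxl1 over Loxl2 was 1.70, 0.41 and 1.12 in the controls and 1.86, 1.59 and 1.83 in the Zfx-KO-labelled libraries, which overlap. In the hydroxylases, Plod1 over Plod3 went from -1.61 ± 0.08 to -1.29 ± 0.06, and Plod1 over Plod2 and Plod2 over Plod3 overlapped. The exact permutation p was 0.1 for each of the 10 pairs without overlap (0.13 adjusted over the 13).

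The families also shifted against each other and against the collagen chains they act on. The summed level of the lysyl oxidase family was 22.0, 16.7 and 19.6 CPM per kb in the controls and 69.8, 80.4 and 76.7 in the Zfx-KO-labelled libraries, 3.90 times higher on average. That of the lysyl hydroxylase family was 243.7, 256.0 and 259.0 CPM per kb in the controls and 303.2, 333.7 and 326.6 in the Zfx-KO-labelled libraries, 1.27 times higher. Hydroxylase transcripts were 11.1, 15.3 and 13.2 times as abundant as oxidase transcripts in the controls and 4.34, 4.15 and 4.26 times in the Zfx-KO-labelled libraries. The 9 fibrillar collagen chains together summed to 1775 ± 171 CPM per kb in the controls and to 3198 ± 334 in the Zfx-KO-labelled libraries (SD, n = 3 each). For each 1000 CPM per kb of these chains, the controls had 12.5, 10.4 and 10.0 of lysyl oxidase and the Zfx-KO-labelled libraries 23.8, 26.1 and 21.5. For lysyl hydroxylase the same ratio was 138.4, 158.9 and 132.7 in the controls and 103.3, 108.3 and 91.4 in the Zfx-KO-labelled libraries. Neither pair of groups overlapped, and the exact two-sided permutation p was 0.1 for each of these ratios.

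Most substrates of the enzymes were higher in the Zfx-KO-labelled libraries. Of 14 collagen and elastic fiber genes, 10 rose and 1, the collagen IV chain Col4a2, fell by 0.26. Over all genes tested, 24.9% rose and 19.5% fell. The median log2 fold change of the list was 0.79, against 0.09 over all genes. Collagen I, the main fibrillar collagen of skin and bone, rose by 5.66 for Col1a1 (SE 0.15, limma adjusted p = 1.23e-08) and by 8.62 for Col1a2 (SE 0.24, limma adjusted p = 1.27e-08). Its chains made up 0.574, 0.491 and 0.645% of the fibrillar collagen transcripts in the controls, per kb, and 22.0, 24.8 and 24.8% in the Zfx-KO-labelled libraries, while the share of Col3a1 went from 78.1% ± 0.121 to 53.4% ± 0.626. Elastin (Eln), the substrate that Loxl1 is known for, stood at -0.77, -2.85 and -1.03 log2 CPM in the controls and at 5.37, 6.51 and 6.66 in the Zfx-KO-labelled libraries. The collagen V chain Col5a3 rose by 1.16 (SE 0.09, limma adjusted p = 4.20e-06). Col4a2 was chosen after its value was seen, and without an intensity trend or without replicate 1 of the Zfx-KO-labelled libraries the list had 0 falls.

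Enzymes and chaperones that act on collagen beside the Plod products moved both ways and mostly by little. Of 19 tested, 7 rose, 4 fell and 8 did not pass, with a median log2 fold change of 0.14. Among all genes tested, 24.9% rose and 19.5% fell. P4ha3, a catalytic subunit of collagen prolyl hydroxylase, went from 0.34 to 3.36 log2 CPM, a rise of 3.02 (SE 0.21, limma adjusted p = 2.41e-06), and the prolyl 3-hydroxylase gene P3h2 rose by 1.00 (SE 0.09, limma adjusted p = 9.42e-06). Creb3l1, a transcription factor of the secretory pathway in matrix-forming cells, rose by 0.92. Crtap, a subunit of the prolyl 3-hydroxylation complex, fell by 0.89 (SE 0.05, limma adjusted p = 7.66e-07). Outside the rule for named genes, and picked with their values in view, Colgalt1, which adds galactose to the hydroxylysines that Plod products make, rose by 0.41 (limma adjusted p = 0.000327), and P3h4, a partner of the Plod1 enzyme, fell by 0.48 (limma adjusted p = 0.000783). Also outside the rule, the peptidyl-prolyl isomerase gene Fkbp10, needed for telopeptide hydroxylation by the Plod2 enzyme, had a log2 fold change of 0.15 (limma adjusted p = 0.137).

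Of 18 procollagen processing and fibril assembly genes tested, 16 rose and 1 fell, beside 24.9% and 19.5% of all genes tested. The median log2 fold change was 1.30, against 0.09 over all genes. This median stays at 1.30 with Adamts3, a gene with 0 control reads, set to the fold that 3 control reads over the group would give. Postn, a matricellular protein that brings Bmp1 to Lox, rose by 4.64 (SE 0.09, limma adjusted p = 2.61e-09). The procollagen N-proteinase gene Adamts2 rose by 9.0 (SE 0.43), the tenascin gene Tnxb by 7.32 (SE 0.28) and the small proteoglycan gene Lum by 3.75 (SE 0.20). These rises start from 13, 51 and 264 reads in the controls together. Bmp1, the protease that releases active Lox from its precursor, rose by 0.61 (SE 0.06, limma adjusted p = 3.56e-05), and Fn1, which binds Lox, by 1.35. Efemp2, which binds Lox and tropoelastin, fell by 0.46 (limma adjusted p = 0.0019). Bmp1, Fn1 and Efemp2 were chosen after their values were seen.

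Genes of copper handling, which supply the cofactor of the lysyl oxidases, showed no common direction. Of 10 tested, 4 rose and 3 fell, with a median log2 fold change of 0.10, beside 24.9% and 19.5% of all genes tested. The metallothionein genes Mt2 and Mt1 rose by 1.89 and 1.64 (SE 0.06 each, limma adjusted p = 2.27e-08 and 4.04e-08), the chaperone gene Ccs fell by 0.90 (SE 0.08, limma adjusted p = 8.61e-06), as did the copper transporter gene Slc31a2 by 0.56 (SE 0.07, limma adjusted p = 7.88e-05). Atp7a, named outside the rule for named genes, loads copper onto secreted enzymes. It stood at 4.46 ± 0.17 log2 CPM in the controls and 4.55 ± 0.10 in the Zfx-KO-labelled libraries (SD, n = 3 each, limma adjusted p = 0.503).

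Lox, Loxl2, Plod1 and Plod2 are known targets of the hypoxia-inducible factors (HIFs), and several members respond to TGF-beta. Of 20 genes of the HIF pathway, 5 rose and 7 fell, with a median log2 fold change of -0.07, and with equal medians 3 rose and 11 fell. As deposited, 24.9% of all genes tested rose and 19.5% fell. The HIF hydroxylase genes Egln3 and Egln1 fell by 1.93 (SE 0.09, limma adjusted p = 2.13e-07) and 0.37, Pdk1, whose kinase restrains pyruvate dehydrogenase, fell by 0.57, and Epas1, which encodes HIF-2alpha and is abundant in endothelium, rose by 6.65 (SE 0.57, limma adjusted p = 8.76e-06). Of 18 TGF-beta pathway genes, 11 rose and 4 fell, with a median of 0.38. Ltbp2 rose by 6.90, Ctgf by 5.17 and Bhlhe40 by 0.89. Epas1, Ltbp2 and Ctgf had 15, 26 and 154 reads in the controls together.

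**Figure D4:**
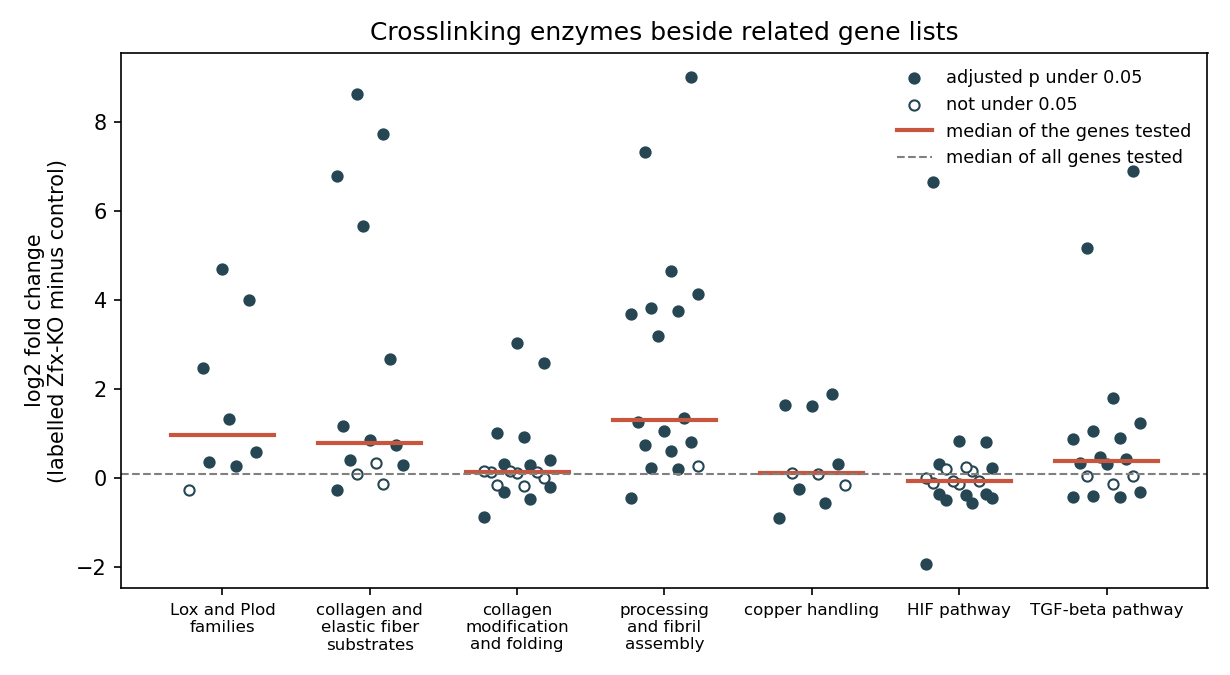
Each point is the log2 fold change of a gene (labelled Zfx-KO minus control), for the 8 crosslinking enzyme genes and 6 lists of related genes, filled where the adjusted p was under 0.05. Red lines are list medians, from -0.07 for the HIF pathway to 1.30 for processing and assembly, and the dashed line is the median of all genes at 0.09.

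RefSeq promoter windows (GRCm38.p6, from 250 bases before to 50 bases after the gene start) were matched for 3 of the 8 genes: Plod1, Plod3 and Loxl4. They were searched on both strands for ACGTG and GCGTG, the core letters of the hypoxia response element, and for AGGCCT, core letters of the motif known for ZFX, which reads the same on both strands. The matches are in capitals, and none overlapped another. Plod1 (chr4:147936727-147937026, minus strand) held GCGTG in 2 places and AGGCCT in 1.
Plod1 promoter: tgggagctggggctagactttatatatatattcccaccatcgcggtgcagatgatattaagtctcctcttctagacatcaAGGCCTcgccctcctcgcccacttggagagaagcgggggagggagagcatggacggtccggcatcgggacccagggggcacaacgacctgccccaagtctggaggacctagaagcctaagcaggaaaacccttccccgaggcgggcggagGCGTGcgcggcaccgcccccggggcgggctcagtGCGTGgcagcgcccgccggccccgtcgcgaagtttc
Plod3 (chr5:136986769-136987068, plus strand) held ACGTG in 1 place and GCGTG in 3, of which 1 is on the opposite strand and reads CACGC.
Plod3 promoter: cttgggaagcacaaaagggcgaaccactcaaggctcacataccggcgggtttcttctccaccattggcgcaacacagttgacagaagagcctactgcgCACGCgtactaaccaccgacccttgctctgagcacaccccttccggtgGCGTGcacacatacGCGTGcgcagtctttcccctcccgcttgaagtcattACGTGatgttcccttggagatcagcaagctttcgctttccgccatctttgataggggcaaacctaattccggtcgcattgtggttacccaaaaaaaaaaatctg
Loxl4 (chr19:42612757-42613056, minus strand) held GCGTG in 1 place, on the opposite strand.
Loxl4 promoter: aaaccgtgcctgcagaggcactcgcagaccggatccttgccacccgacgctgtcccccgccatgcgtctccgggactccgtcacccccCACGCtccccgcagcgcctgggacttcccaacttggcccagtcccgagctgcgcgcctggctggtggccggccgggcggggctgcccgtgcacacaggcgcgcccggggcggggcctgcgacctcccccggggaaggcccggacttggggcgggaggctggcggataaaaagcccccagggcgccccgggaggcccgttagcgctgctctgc
Of all 32851 promoter windows of this length, 43.8% held ACGTG or GCGTG, 3.86% held them in 4 or more places as Plod3 does, and 10.3% held AGGCCT. A match is a run of letters and not a measured site.

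Most pericyte, smooth muscle, endothelial and fibroblast markers were higher in the Zfx-KO-labelled libraries, while most macrophage markers did not pass the test. Over all genes tested, 24.9% were called higher and 19.5% lower. Of 12 pericyte and smooth muscle markers 12 were higher in the Zfx-KO-labelled libraries, with a summed level of 311.0 to 360.7 CPM in the controls and 592.1 to 764.9 CPM in the Zfx-KO-labelled libraries, and Abcc9 of this list had 0 reads in the controls. Most of this sum in the controls was Cspg4 and Pdgfrb, at 7.89 and 6.60 log2 CPM, which were higher by 0.62 and 0.27. The median log2 fold change of the 12 was 6.24, and Rgs5, Acta2, Notch3 and Tagln, picked with their values in view, were higher by 8.12, 6.60, 6.44 and 6.42, from 48, 73, 22 and 25 control reads. Of 12 endothelial markers 11 were higher and 1 lower, with a median log2 fold change of 2.98 and a summed level of 27.9 to 36.7 and 121.2 to 149.6 CPM. Of 15 fibroblast markers 11 were higher and 3 lower, with a summed level of 8579 to 10250 and 14928 to 17940 CPM. The 11 include Thy1, higher by 1.16, whose allele changed with the genotype. The 3 lower ones were Pdgfra, Pdpn and Fbln1, by 0.43, 0.25 and 0.98 log2 units. Pdgfra and Dcn already stood at 8.68 and 9.22 log2 CPM in the controls. The fibroblast list holds collagen chains of the substrate list. Most of its sum was Col3a1, at 12.9 log2 CPM in the controls and 13.2 in the Zfx-KO-labelled libraries. Of 12 macrophage markers 1 was higher and 11 did not pass. Their summed level was 213.6, 44.8 and 98.6 CPM in the controls and 241.7, 83.7 and 108.2 in the Zfx-KO-labelled libraries. Among the Zfx-KO-labelled libraries the summed pericyte and smooth muscle level was lowest in replicate 3 (592.1 CPM), and the macrophage level in replicate 2 (83.7 CPM). The summed endothelial (121.2 CPM), fibroblast (14928 CPM) and lysyl oxidase (69.8 CPM per kb) levels were lowest in replicate 1. Most of the endothelial sum was Pecam1, at 6.45, 6.81 and 6.86 log2 CPM in these libraries. Not every marker followed its sum: Tek and Plvap were highest in replicate 1, as were Thy1, Fap and Gsn of the fibroblast list. The part of these cell types in the values of the 8 genes was not tested, and in sorted cells read in bulk a larger number of cells of a type and more RNA per cell cannot be told apart.

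The genes whose pattern over the 6 libraries was most like that of a member were found by the root mean square difference of log2 values, each centred on its own mean, among 12503 other genes. For Lox these were Zan, a sperm protein gene, and Col6a4, a collagen VI chain, at 0.12 and 0.13 log2 units. For Loxl1 they were Tmem100 and the glypican gene Gpc3, at 0.20 and 0.22, and for Loxl2 Fry and Ndufa4l2, at 0.15 each. Loxl3 was nearest to Id3, an inhibitor of basic helix-loop-helix factors, and to Mettl27, at 0.05 and 0.06, and Loxl4 to Chac1, a glutathione-degrading enzyme gene, and to Them6, at 0.04 and 0.06. For Plod1 they were Stx1a and Cyb561a3, at 0.02 and 0.03, for Plod2 Wdr35 and Zfp607a, at 0.03 and 0.04, and for Plod3 Thop1 and Wdtc1, at 0.01 and 0.02.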

How the data were processed

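RNA of sorted MC38 tumor cells was sequenced from 3 control libraries and 3 labelled Zfx-KO, grouped by the genotype label and numbered in record order. The deposited values were log2 CPM, with a floor of -5.49 at 0 reads and 0 columns of other samples. Per the submitters' processing notes the builds were GRCh38 and mm10, with no role named. No aligner or counter is named in the sources used here. With a prior of 1 read on average, all low values (under 2000 reads) gave whole reads within 0.05 reads, which gave the depths. A level of 3 reads equals 0.0461 to 0.0794 CPM. Exon lengths were those of the deposited table, and chromosomes came from GENCODE M21 (GRCm38).

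Tested genes exceeded the floor in 3 or more libraries and had a mean 1 log2 unit or more over it. The test was run with limma 3.58.1 in R 4.3.3 (intensity trend, two-sided, Benjamini-Hochberg over all 20094 genes, threshold 0.05), after a check on simulated data. Fold changes carry the prior, which understates those of scarce genes. Levels per kb used recovered reads without the prior. Shares and ratios were tested with exact permutation tests (scipy 1.17.1). No replicate pair agreed within sampling noise (chi-square per gene, 12.3 to 23.5). The gene lists, the members and the rule for named genes were chosen with earlier results of these data known. The rule took up to 4 genes with the smallest p per list, and the 2 nearest patterns per member. Genes named outside it are marked in part where they appear, and single cell type markers were outside it throughout. A gene that the rule picked is not reported here. Of the 16 alternatives, none was a paired fit.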

Additional observations from a re-analysis of the deposited data

How the results depend on the processing

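Lox, Loxl1, Loxl2, Loxl3 and Plod1 kept their direction and call in all 16 alternatives, with log2 fold changes of 2.26 to 2.57, 4.43 to 4.83, 3.79 to 4.09, 1.12 to 1.39 and 0.36 to 0.66. With equal medians Plod2 stood at 0.13, Plod3 at 0.046 and Loxl4 at -0.49, so 1 member was called lower, 3224 genes were called higher and 6357 lower, and the HIF list had 3 rises and 11 falls. Sample weights gave -0.35 for Loxl4, again with 1 member lower. Without an intensity trend Plod2 stood at 0.35 and Plod3 at 0.26, both no longer called, and the HIF list had 2 rises. The substrate list had 2 falls with equal medians and with quantile normalization and 0 without an intensity trend. The share of Plod2 moved by -0.047 percentage points without division by length. Leaving out 1 library at a time gave -0.39 to -0.15 for Loxl4, 0.19 to 0.33 for Plod3, 0 to 1 members lower, 0 to 1 falls among substrates, 3 to 5 rises in the HIF list and -1.94 to 2.31 percentage points for the share of Plod2. The cause of these changes was not tested. Of 640 values of the other named genes, 27 lost and 3 gained their call. No paired fit was run because the labels give no replicate numbers or pairs, and the numbers used here follow record order. The summed macrophage level had the same order by number in both groups. So did the levels of Loxl4, Plod1, Plod2 and Plod3, but not those of Lox, Loxl1, Loxl2 and Loxl3. Whether libraries of the same number belong together was not tested. Depth limits the controls of Loxl1 and Loxl2 most, with 324 and 248 reads over 3 libraries.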
